A study of Homo sapiens with 8 samples.

Results

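The 10 genes described here make lipoic acid and attach it to mitochondrial enzymes, or encode subunits of the pyruvate and oxoglutarate dehydrogenase complexes that carry it. They were taken by gene symbol from a deposited table of 15852 genes: LIAS, LIPT2 and LIPT1 for synthesis and transfer, PDHA1, PDHB, DLAT, PDHX and DLD for the pyruvate dehydrogenase complex, and OGDH and DLST for the oxoglutarate dehydrogenase complex, which also uses DLD. All 10 were among the 11841 genes with enough counts to be tested. RNA was sequenced from KYSE150, an established line of esophageal squamous cell carcinoma, in 2 groups of 4 libraries, with no other treatment. One group has the genotype ShBOLA3-L, a knockdown of the isoform of BOLA3 that the labels call BOLA3-L, and is named shBOLA3-L here. The other has the genotype Control. The labels give no hairpin sequence, all libraries come from a single cell line, and no source used here tells if they were grown as separate cultures. The p-values then measure spread between libraries, which may be technical.

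Lipoic acid is a sulfur-containing cofactor bound to a lysine of a few mitochondrial proteins, where it works as a swinging arm that carries acyl groups between active sites. LIPT2 moves an octanoyl group from mitochondrial fatty acid synthesis onto the H protein of the glycine cleavage system, LIAS inserts the sulfur atoms, and LIPT1 passes the finished lipoyl group on to the E2 subunits of the dehydrogenases. LIAS is itself an iron-sulfur enzyme, and BOLA3 helps deliver iron-sulfur clusters to such enzymes. Inherited defects of BOLA3 are known to lower protein lipoylation and the activity of these dehydrogenases. Lipoylation and enzyme activity were not measured in these libraries, which hold transcript levels only.

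The libraries held 31178036 to 35147860 counts, at which 3 counts are 0.0854 to 0.0962 CPM (counts scaled by the effective library size). BOLA3 stood at 6.06, 6.64, 6.33 and 7.29 CPM in shBOLA3-L replicates 1 to 4, against 21.6, 19.1, 20.5 and 21.8 CPM in Control replicates 1 to 4 (log2 change -1.66, SE 0.0821, edgeR adjusted p 6.9e-11), counted over all its isoforms. The first principal component, with 46.5% of the variance, put the groups apart. The next one, with 14.4%, set shBOLA3-L replicate 1 (score 20.1) off from the rest of its group (-10.1 to -4.81). In that library deviations of genes from their mean fell with the GC content of the transcript (Spearman's rho -0.55 across genes, which are not independent), while rho was 0.18 to 0.39 in the other 3 knockdown libraries and -0.071 to 0.050 in Control libraries. Of 7 squamous epithelium markers, 6 averaged at least 1 CPM and SOX2 was under 1 CPM. The 7 summed to 2611 to 2937 CPM in shBOLA3-L and 4345 to 4382 CPM in Control libraries, with KRT5 the highest. A level of 1 CPM does not by itself identify a cell type, as 11162 genes reached it in at least 4 libraries. Markers of leukocytes summed to at most 0.294 CPM in shBOLA3-L and 0.334 CPM in Control libraries. Those of endothelium summed to at most 2.56 CPM in shBOLA3-L and 1.91 CPM in Control libraries. Those of fibroblasts summed to 4.25 to 7.0 CPM in shBOLA3-L and 9.85 to 14.7 CPM in Control libraries, with COL1A1 alone averaging at least 1 CPM. The part of these markers in the results below was not tested.

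PDHX, which anchors the E3 subunit in the pyruvate dehydrogenase complex, was the only member of the 10 that passed the test, and it fell by 9.43%. That is 1 of 10 members, where 30.7% of all genes tested passed (15% rose and 15.6% fell). No member changed by 2-fold or more, while 1.32% of all genes tested both passed and changed by at least 2-fold. In bulk RNA, fewer cells of a type and less RNA per cell cannot be told apart. The 10 log2 changes ran from -0.14 (PDHX) to 0.25 (LIPT2), 5 were positive and 5 negative, and the median of their absolute values was 0.070, beside 0.11 over all genes tested. The 3 genes of lipoate synthesis and transfer had the highest log2 changes (0.15 to 0.25, median of the absolute values 0.16), with wide intervals for LIPT2 and LIPT1. Of the 5 pyruvate dehydrogenase genes 4 had negative ones (median of the absolute values 0.057). An unadjusted p under 0.05 was found for 3 members in edgeR, PDHX (0.0123), LIAS (0.0360) and DLAT (0.0422), where 40.8% of all genes tested had one. In 2 members, PDHB and DLST, the libraries of the groups did not overlap, against 30.2% of all genes tested.

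**Figure D1:**
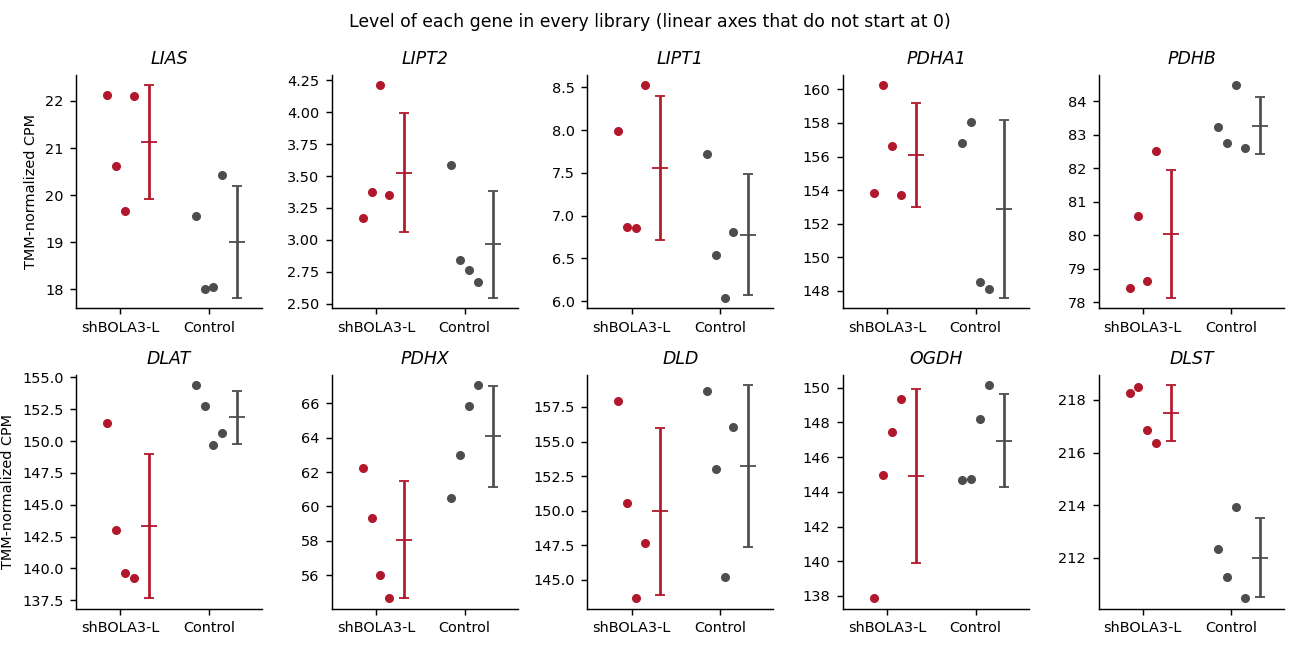
TMM-normalized CPM (vertical axes, linear and not starting at 0) of each of the 10 genes in the 4 shBOLA3-L libraries (red, left, replicates 1 to 4 from left to right) and the 4 Control libraries (grey, right). Points are libraries and bars are mean ± SD; only PDHB and DLST have groups that do not overlap, by margins small on the scale of their levels.

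LIAS, the lipoyl synthase and the iron-sulfur enzyme among the members, lies on chromosome 4, 39459056 to 39479506 (GRCh38). It stood at 22.1, 20.6, 19.7 and 22.1 CPM in shBOLA3-L replicates 1 to 4 and at 19.5, 18.0, 18.1 and 20.4 CPM in Control replicates 1 to 4. The knockdown libraries were higher on average, but shBOLA3-L replicate 3 lay below Control replicate 4. The means were 21.1 ± 1.21 CPM in shBOLA3-L cells and 19.0 ± 1.19 CPM in Control cells (SD, n = 4 each). The log2 change of 0.15 (SE 0.0673, 95% interval 0.011 to 0.29) had an edgeR adjusted p of 0.0964 and did not pass. The interval allows anything from 0.771% to 22.5% above Control. With offsets corrected for GC content, an alternative chosen after the data were seen, the log2 change was 0.15 and the adjusted p 0.0449. This was the only one of 19 alternatives in which LIAS passed.

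LIPT2, the octanoyltransferase, and LIPT1, the lipoyltransferase, were the lowest members, and their counts limit what could be seen. LIPT2 (chromosome 11, 74490519 to 74493724) had 88 to 145 counts per library, where counting error alone is 10.7% of the lowest count. Its levels were 3.17, 3.37, 4.21 and 3.35 CPM in shBOLA3-L replicates 1 to 4 and 3.59, 2.84, 2.76 and 2.67 CPM in Control replicates 1 to 4, with Control replicate 1 above 3 of the knockdown libraries. Its log2 change of 0.25 did not pass (SE 0.152, edgeR adjusted p 0.226), and the 95% interval spans -4.54% to 48.6% of change. LIPT1 (chromosome 2, 99154967 to 99163137) had 7.99, 6.86, 6.85 and 8.53 CPM in shBOLA3-L replicates 1 to 4 and 7.72, 6.54, 6.04 and 6.81 CPM in Control replicates 1 to 4, and the groups overlapped. The log2 change came to 0.16 (SE 0.111, edgeR adjusted p 0.306, interval -5.08% to 31.0%). Neither passed under any of the 19 alternatives. A share of 7.41% of the LIPT1 transcript also occurs in a transcript annotated on the same strand under another gene, so part of its counts is uncertain.

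The E1 subunits of the pyruvate dehydrogenase complex, which decarboxylate pyruvate, showed no change past the test. PDHA1, the alpha subunit and the site of regulatory phosphorylation (chromosome X, 19343927 to 19361718), stood at 154, 160.2, 157 and 154 CPM in shBOLA3-L replicates 1 to 4 and 157, 158, 149 and 148 CPM in Control replicates 1 to 4. The groups overlapped, with a log2 change of 0.030 (SE 0.0377, edgeR adjusted p 0.583, interval -3.33% to 7.88%). PDHB, the beta subunit (chromosome 3, 58427630 to 58433832), stood at 78.4, 80.6, 78.6 and 82.5 CPM in shBOLA3-L replicates 1 to 4, against 83.2, 82.8, 84.5 and 82.6 CPM in Control replicates 1 to 4. The highest knockdown library thus lay just below the lowest Control library. The log2 change of -0.057 (SE 0.0401, edgeR adjusted p 0.308, interval -9.31% to 1.92%) did not pass. On the deposited FPKM scale, without TMM, the PDHB groups overlapped (52.6 to 55.0 FPKM in shBOLA3-L and 54.4 to 55.7 FPKM in Control libraries).

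DLAT is the lipoylated E2 subunit that hands the acetyl group to coenzyme A and forms the core of the complex. It lies on chromosome 11, 112025408 to 112064404 and stood at 151, 143, 139.7 and 139 CPM in shBOLA3-L replicates 1 to 4, against 154, 153, 149.7 and 151 CPM in Control replicates 1 to 4. Knockdown replicates 2 to 4 lay below all Control libraries, and replicate 1 lay among them. The log2 change was -0.084 (SE 0.0383, 95% interval before adjustment -0.16 to -0.0033) and did not pass (edgeR adjusted p 0.108). Without shBOLA3-L replicate 1 it was -0.11 with an adjusted p of 0.00250, and with GC-corrected offsets it was -0.080 with an adjusted p of 0.0225. In these 2 fits 5081 and 4943 of all genes passed, against 3630 with all libraries and no such correction. DLAT passed in 3 of 19 alternatives, with adjusted p up to 0.241 in the rest.

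PDHX, a lipoylated relative of DLAT that has lost its catalytic role and binds E3 to the core, lies on chromosome 11, 34915920 to 34996128. It stood at 62.2, 59.4, 56.0 and 54.7 CPM in shBOLA3-L replicates 1 to 4, against 60.5, 63.0, 65.8 and 67.0 CPM in Control replicates 1 to 4. The groups overlapped: shBOLA3-L replicate 1 lay above Control replicate 1, and the other 3 knockdown libraries lay below every Control library. The means were 58.1 ± 3.40 CPM in shBOLA3-L cells and 64.1 ± 2.94 CPM in Control cells (SD, n = 4 each). PDHX fell by 0.14 on the log2 scale (SE 0.0515, edgeR adjusted p 0.0424), with an interval of -16.0% to -2.39%. Leaving out any of 6 libraries ended the call (shBOLA3-L replicates 2 to 4 and Control replicates 2 to 4), with edgeR adjusted p from 0.0631 to 0.136, and it held in 8 of 19 alternatives. Leaving out Control replicate 1 kept it (adjusted p 0.0352). Without shBOLA3-L replicate 1 the log2 change was -0.18 (adjusted p 7.1e-04) and with GC-corrected offsets -0.14 (adjusted p 0.0060). In these 2 fits more of all genes passed as well (5081 and 4943, against 3630). The part of GC content in the fall was not tested. The GC content was 43.5% in the PDHX transcript and 43.3% in that of DLAT.

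PDHX and LIAS each start close to a gene that runs the other way, and the bases between the starts are shown. They are not alone in this among the members. LIPT1 (TSGA10, 1 base away), LIPT2 (LIPT2-AS1) and PDHB (LOC107986092) also have an opposite-strand start within 1000 bases, not shown here. The PDHX span given above covers the bases of its pair, while the LIAS span begins just after those of its pair. The PDHX start in RefSeq's promoter table, which lies inside the span given above, is 59 bases from that of APIP, an enzyme of methionine salvage, and the LIAS start is 134 bases from that of RPL9, a protein of the large ribosomal subunit. Both stretches are printed from RefSeq on GRCh38.p14, plus strand, 5′ to 3′, with GC boxes (GGGCGG) and CCAAT boxes, searched on both strands, in capitals.
PDHX to APIP, chr11:34916380-34916437: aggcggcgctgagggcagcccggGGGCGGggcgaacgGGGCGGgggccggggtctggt
LIAS to RPL9, chr4:39458923-39459055: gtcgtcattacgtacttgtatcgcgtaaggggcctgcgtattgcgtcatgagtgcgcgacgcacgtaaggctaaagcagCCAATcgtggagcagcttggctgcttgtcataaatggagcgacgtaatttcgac

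The PDHX stretch holds 2 GC boxes on 58 bases and the LIAS stretch 1 CCAAT box on 133 bases. In GENCODE v29, exons of PDHX and APIP overlap on opposite strands by 259 of 3760 exonic bases of PDHX, those of LIAS and RPL9 by 363 of 11735. LIPT2 overlaps an opposite-strand gene by 368 of 1187 exonic bases, PDHA1 by 956 of 4493 and LIPT1 by up to 262 of 2279. PDHB (360 of 4717), DLAT (212 of 4831) and DLD (70 of 5299) also overlap such a gene, while OGDH and DLST do not. Whether the counting used strand is not given in the sources used here, so reads in the overlaps cannot be assigned with certainty. APIP stood at 60.4, 60.1, 57.2 and 58.4 CPM in shBOLA3-L replicates 1 to 4, against 55.8, 52.1, 53.6 and 54.2 CPM in Control replicates 1 to 4, and rose, where PDHX fell (log2 change of APIP 0.13, SE 0.0451, edgeR adjusted p 0.0348). The APIP call was lost under 6 of 19 alternatives (adjusted p up to 0.10). RPL9 had 793 ± 26.6 CPM in shBOLA3-L cells and 745 ± 34.2 CPM in Control cells (SD, n = 4 each) and did not pass (log2 change 0.091, edgeR adjusted p 0.0694). It passed under 6 of 19 alternatives, among them leaving out shBOLA3-L replicate 1 (adjusted p 0.0052) or Control replicate 4 (0.0254). Both neighbours were looked up after the values of the members were seen.

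DLD is the flavoprotein E3 that reoxidizes the lipoyl group, and it is shared by all complexes of this kind and by the glycine cleavage system. It lies on chromosome 7, 107891107 to 107921198 and stood at 158, 151, 144 and 148 CPM in shBOLA3-L replicates 1 to 4 and 159, 153, 145 and 156 CPM in Control replicates 1 to 4. The groups overlapped nearly in full, with a log2 change of -0.031 (SE 0.0410, edgeR adjusted p 0.604, interval -7.81% to 3.87%).

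In the oxoglutarate dehydrogenase complex of the citric acid cycle neither member passed. OGDH, the E1 subunit (chromosome 7, 44606627 to 44709066), stood at 138, 145, 147 and 149 CPM in shBOLA3-L replicates 1 to 4 and 145, 145, 148 and 150.1 CPM in Control replicates 1 to 4. The lowest value was that of shBOLA3-L replicate 1, and the other knockdown libraries lay within the Control range. The log2 change of -0.020 did not pass (SE 0.0380, edgeR adjusted p 0.730, interval -6.67% to 4.22%), and it was 0.0044 without that library.

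DLST, the lipoylated E2 subunit (chromosome 14, 74881916 to 74903743), was the most abundant member. It stood at 218, 218, 217 and 216 CPM in shBOLA3-L replicates 1 to 4, against 212, 211, 214 and 210.5 CPM in Control replicates 1 to 4. Every knockdown library lay above every Control library, and the coefficient of variation was 0.49% in shBOLA3-L and 0.71% in Control libraries, smaller than the counting error of 1.23% at its lowest count. The difference itself was small, and in edgeR, which takes the spread from counting error and from other genes into account, the log2 change of 0.037 (SE 0.0327, adjusted p 0.426, interval -2.18% to 7.58%) did not pass. It passed only in limma on log2 FPKM without a filter on low values (log2 change 0.056, adjusted p 0.0358). A share of 2.70% of the DLST transcript also occurs in the pseudogene DLSTP1.

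**Figure D2:**
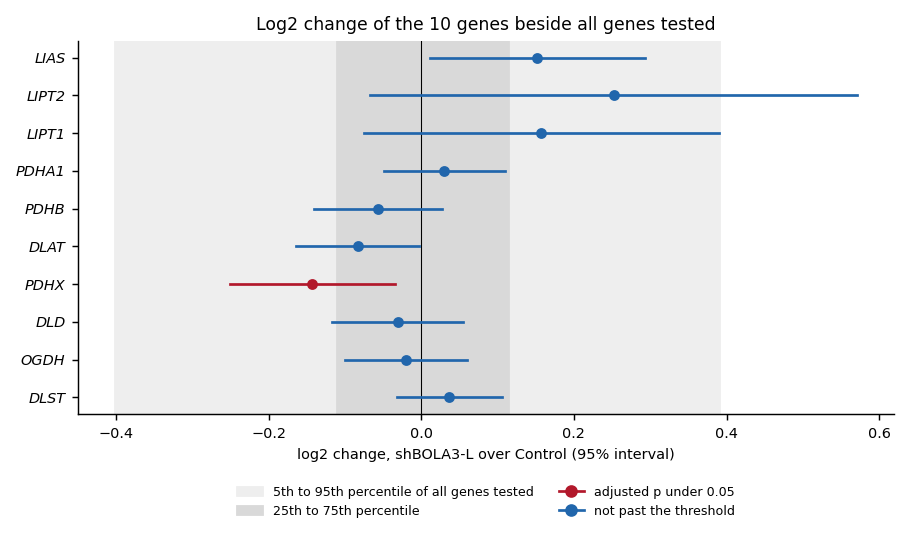
Log2 change of each gene, shBOLA3-L over Control (horizontal axis), as points with 95% intervals, beside the 5th to 95th and the 25th to 75th percentiles of all 11841 genes tested (light and dark grey). Only PDHX (-0.14) passed the adjusted p threshold of 0.05, and the intervals are widest for LIPT2 and LIPT1.

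Levels between genes were compared per gene length, as FPKM from the deposited table. In shBOLA3-L cells the means ran from 59.1 FPKM for DLST through 53.5 for PDHB, 45.3 for PDHA1, 41.8 for DLD, 38.3 for DLAT, 32.5 for OGDH and 22.0 for PDHX to 5.63 for LIAS, 3.94 for LIPT1 and 1.5 for LIPT2. In Control cells they ran in the same order, from 56.8 FPKM for DLST to 23.9 for PDHX, 4.99 for LIAS, 3.48 for LIPT1 and 1.24 for LIPT2. The 3 genes of lipoate synthesis and transfer therefore stood below all 7 dehydrogenase subunits in every library. The neighbours in this order that overlapped were DLD and DLAT in both groups, and PDHA1 and DLD in Control libraries.

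**Figure D3:**
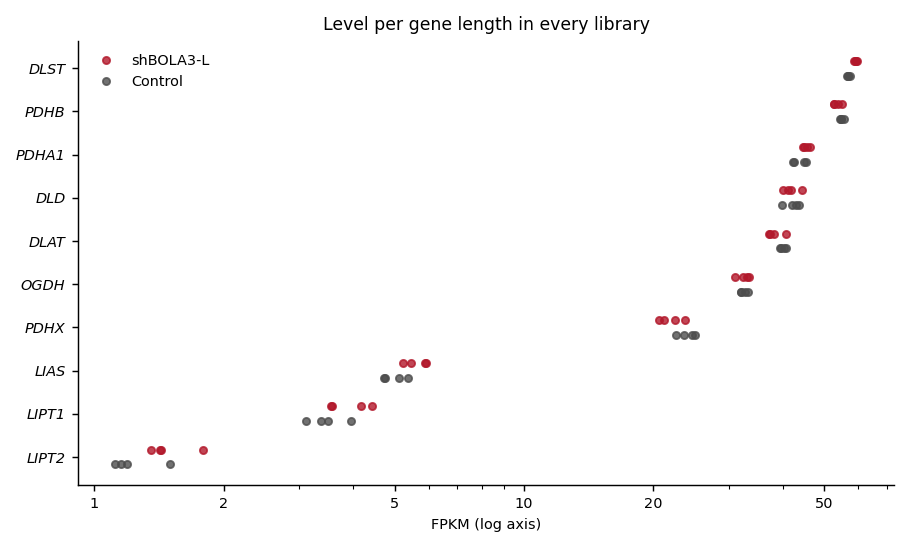
FPKM (horizontal log axis) of the 10 genes in each of the 4 shBOLA3-L libraries (red, upper points) and 4 Control libraries (grey, lower points), ordered by Control mean. LIPT2, LIPT1 and LIAS lie below all dehydrogenase subunits in both groups.

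Ratios of subunit transcripts within a library do not depend on its depth, and 6 of them were compared between the groups. They can still carry the GC trends of the libraries, since FPKM was not corrected for GC content. GC content was 39.3% in the DLD transcript, 51.9% in that of DLST and 56.3% in that of OGDH. The part of GC content in the ratios was not tested. The closest to a difference were DLD/DLAT, at 1.09 ± 0.0144 in shBOLA3-L cells and 1.05 ± 0.0310 in Control cells (SD, n = 4 each; exact two-sided permutation test p = 0.0571, 0.229 adjusted over the 6), and PDHA1/PDHB, at 0.847 ± 0.0262 in shBOLA3-L cells and 0.797 ± 0.0313 in Control cells (exact permutation p = 0.0857, adjusted 0.229). DLST/OGDH was 1.82 ± 0.0715 in shBOLA3-L cells and 1.75 ± 0.0354 in Control cells (exact permutation p = 0.114), DLD/DLST was 0.707 ± 0.0260 in shBOLA3-L cells and 0.741 ± 0.0318 in Control cells (0.171), PDHX/DLAT was 0.574 ± 0.0143 in shBOLA3-L cells and 0.599 ± 0.0351 in Control cells (0.286) and DLAT/PDHB was 0.716 ± 0.0405 in shBOLA3-L cells and 0.729 ± 0.0148 in Control cells (0.657). In all 6 the groups overlapped, and no ratio passed, where the smallest p that 70 assignments allow is 0.0286. A lone ratio at that p would have 0.171 after adjustment over the 6, so no single ratio could pass by itself. The log2 difference of PDHX/DLAT was -0.059 (SE 0.0464).

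**Figure D4:**
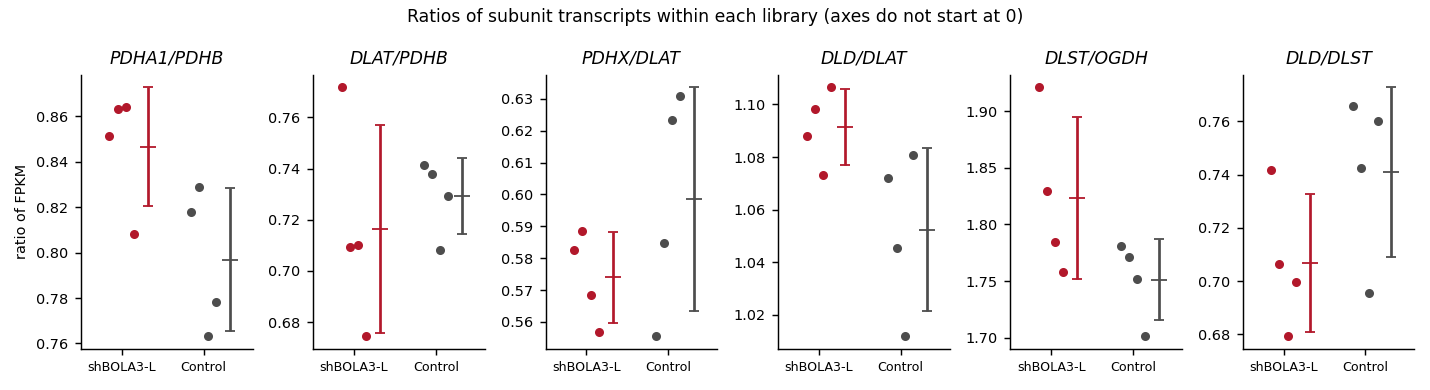
Ratio of the FPKM of subunit pairs (vertical axes, linear and not starting at 0) in the 4 shBOLA3-L libraries (red, left, replicates 1 to 4) and the 4 Control libraries (grey, right), with mean ± SD. The groups overlap in all 6 panels; shBOLA3-L replicate 1 is the highest library for DLAT/PDHB and DLST/OGDH.

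The genes around these complexes were followed in 5 lists with 50 members, of which 46 could be tested. PDHA2 is not listed in the table, and OGDHL, PDK4 and HTD2 had at most 2 counts in any library. Since 83% of the HTD2 transcript also occurs in transcripts of RPP14 on the same strand, its counts are uncertain. Of the 46, 8 rose and 5 fell, where 15% of all genes tested rose and 15.6% fell. The median log2 change was 0.055, beside 0.0014 over all genes tested. With each library left out in turn the number that passed ranged from 8 (without Control replicate 1, Control replicate 2 or shBOLA3-L replicate 2) to 19 (without shBOLA3-L replicate 1). The number over all genes tested moved the same way. It was 2841 of 11911 without Control replicate 2 and 5081 of 11897 without shBOLA3-L replicate 1.

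**Figure D5:**
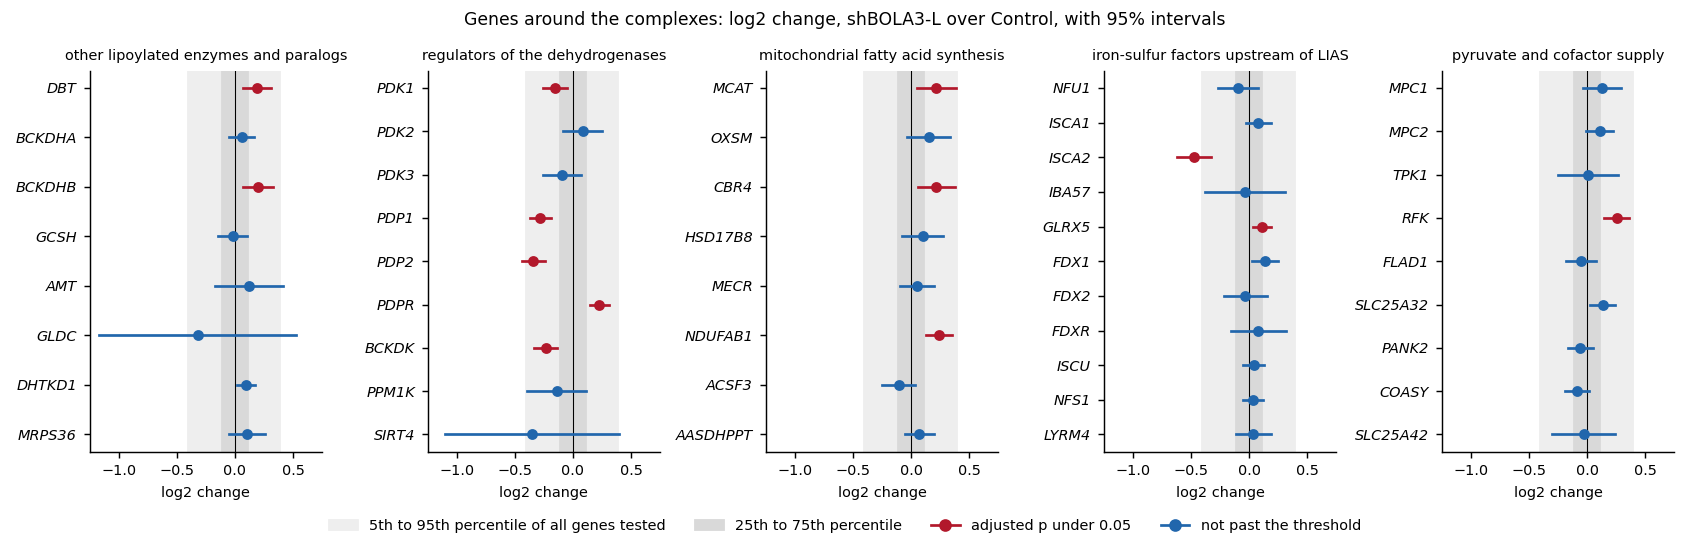
Log2 change, shBOLA3-L over Control (horizontal axes), with 95% intervals, of the genes in 5 lists, with 1 of the 46 tested not drawn; red marks an adjusted p under 0.05 and grey bands are percentiles of all genes tested. The regulators hold 4 of the 5 falls, and mitochondrial fatty acid synthesis has 3 rises.

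Of 9 tested regulators of the dehydrogenases, 4 fell and 1 rose, where 15.6% of all genes tested fell and 15% rose (median log2 change -0.15, beside 0.0014 over all genes tested). PDP1 and PDP2, the catalytic subunits of the phosphatases that reactivate PDHA1, both fell. PDP1 stood at 149, 129.8, 133 and 130.1 CPM in shBOLA3-L replicates 1 to 4, against 161, 165, 166 and 166 CPM in Control replicates 1 to 4 (log2 change -0.28, SE 0.0437, edgeR adjusted p 8.8e-05). PDP2 stood at 56.8, 55.2, 54.2 and 53.8 CPM in shBOLA3-L replicates 1 to 4, against 70.2, 66.0, 68.3 and 74.2 CPM in Control replicates 1 to 4 (-0.34, SE 0.0471, adjusted p 2.6e-05). The groups did not overlap in either gene, and both passed under all 19 alternatives. PDPR, the regulatory subunit that lowers the sensitivity of PDP1 to magnesium, rose to 247 ± 12.0 CPM in shBOLA3-L cells, against 211 ± 2.12 CPM in Control cells (SD, n = 4 each; 0.23, adjusted p 1.8e-04), with 10.6% of its transcript shared with other annotated transcripts, so part of its counts is uncertain.

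Of the kinases that switch the pyruvate dehydrogenase complex off by phosphorylating PDHA1, PDK1 fell to 49.3 ± 2.60 CPM in shBOLA3-L cells, against 54.9 ± 2.09 CPM in Control cells (SD, n = 4 each; log2 change -0.15, edgeR adjusted p 0.0268). Its groups overlapped, and the call was lost under 8 of 19 alternatives (adjusted p up to 0.0968). PDK2 (0.082) and PDK3 (-0.093) did not pass. BCKDK, the kinase of the branched-chain oxoacid dehydrogenase, fell to 75.4 ± 4.40 CPM in shBOLA3-L cells, against 88.8 ± 2.23 CPM in Control cells (SD, n = 4 each; -0.23, adjusted p 8.8e-04), with no overlap. The opposing phosphatase PPM1K (-0.14) and the lipoamidase SIRT4 (-0.35), at 0.507 CPM in shBOLA3-L and 0.642 CPM in Control cells, did not pass.

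Mitochondrial fatty acid synthesis, which supplies the octanoyl group for lipoate, had 3 rises among 8 tested genes, where 15% of all genes tested rose, and 2 of the 3 were lost under some alternatives (median log2 change 0.13, beside 0.0014 over all genes tested). NDUFAB1, the acyl carrier protein that holds the growing chain and also a complex I subunit, stood at 63.4, 64.5, 57.2 and 63.1 CPM in shBOLA3-L replicates 1 to 4, against 50.8, 49.3, 53.1 and 56.6 CPM in Control replicates 1 to 4, and rose without overlap (log2 change 0.24, SE 0.0536, edgeR adjusted p 0.00205), as it did under all 19 alternatives. CBR4, part of the ketoacyl reductase of the pathway, rose by a log2 change of 0.22 (adjusted p 0.0342) and MCAT, the malonyl transferase, by 0.22 (adjusted p 0.0461). Those calls were lost under 6 alternatives for CBR4 (adjusted p up to 0.112) and 9 for MCAT (up to 0.148). The condensing enzyme OXSM (0.15) and the enoyl reductase MECR (0.052) did not pass.

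Among the other lipoylated enzymes and paralogs, 2 of 8 tested genes rose, where 15% of all genes tested rose, and the other 6 did not pass (median log2 change 0.10, beside 0.0014 over all genes tested). Both belong to the branched-chain oxoacid dehydrogenase, a complex built like that for pyruvate. DBT, its lipoylated E2, averaged 78.4 ± 6.01 CPM in shBOLA3-L cells and 68.7 ± 4.54 CPM in Control cells (SD, n = 4 each; log2 change 0.19, edgeR adjusted p 0.0175). BCKDHB, its E1 beta subunit, averaged 21.5 ± 0.897 CPM in shBOLA3-L cells and 18.7 ± 0.616 CPM in Control cells (SD, n = 4 each; 0.20, adjusted p 0.0199). Each lost its call under 3 of 19 alternatives (adjusted p up to 0.0809 for DBT and 0.0609 for BCKDHB). The E1 alpha subunit BCKDHA (0.058) and GCSH, the lipoylated H protein of glycine cleavage (-0.017), did not pass. Their counts are uncertain, since 74.4% of the BCKDHA transcript and 16.2% of that of GCSH also occur in transcripts of other annotated genes. The same holds for AMT (96.6%), and in the lists below for FDX2 (86.8%) and SLC25A32 (87.6%), none of which passed. GLDC, which did not pass, had only 8 to 27 counts per library.

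Of 11 factors that build or deliver the iron-sulfur clusters of LIAS, ISCA2, a late-acting assembly factor, fell to 15.1 ± 1.03 CPM in shBOLA3-L cells, against 21.0 ± 1.03 CPM in Control cells (SD, n = 4 each; log2 change -0.48, edgeR adjusted p 4.9e-05). GLRX5, a glutaredoxin that carries clusters and pairs with BOLA3, rose by a log2 change of 0.11 (adjusted p 0.0333), a call lost under 9 of 19 alternatives (adjusted p up to 0.0915). Of the 11, 1 rose and 1 fell, where 15% of all genes tested rose and 15.6% fell. The list's median was 0.034, beside 0.0014 over all genes tested. NFU1, which hands clusters to LIAS, had a log2 change of -0.093 and did not pass (adjusted p 0.421). Of 10 genes of pyruvate and cofactor supply, RFK, the riboflavin kinase on the path to the flavin of DLD, rose to 53.8 ± 3.23 CPM in shBOLA3-L cells, against 45.2 ± 1.33 CPM in Control cells (SD, n = 4 each; 0.25, adjusted p 0.00116), as it did under all 19 alternatives. The other 9 did not pass, where 15% of all genes tested rose and 15.6% fell (median of the 10 log2 changes 0.057, beside 0.0014 over all genes tested). The pyruvate carrier subunits MPC1 (0.13) and MPC2 (0.11) were among these.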

How the data were processed

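The deposited counts are raw counts per gene, per the file headers and their whole values, in 8 libraries of KYSE150 cells. The authors' second table holds FPKM, which equals the count over the library total and 1 length per gene, so it is not independent. Per the labels, polyA RNA was sequenced as 150 bp paired-end reads on build hg38; reads were filtered with fastp per the series' design text. Aligner, counting tool and annotation: not given in the sources used here.

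Counts were normalized by TMM, filtered with filterByExpr and tested over all 11841 genes kept by the quasi-likelihood F-test of edgeR (robust fit), shBOLA3-L over Control, with Benjamini-Hochberg adjustment at 0.05. Levels in CPM use TMM; an SE is the absolute log2 change divided by the square root of F. Ratios of FPKM were compared by exact two-sided permutation. The steps were tested on simulated counts. The software was R 4.3.3 with DESeq2 1.42.0, limma 3.58.1 and edgeR 4.0.16, and Python 3.11.15 with matplotlib 3.10.9, pandas 2.3.3, scipy 1.17.1 and numpy 2.4.6.

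The members and lists were chosen with earlier results of these data known. All members, BOLA3 and the partner genes past the threshold were named by rule, and other genes after their values were seen. One partner gene is counted with its list but not reported here. Coordinates are RefSeq's on GRCh38.p14. Shared sequence is the percentage of 75-base windows, taken every 25 bases, that occur in GENCODE v29 transcripts of other genes.

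Alternatives were RLE or upper quartile normalization, no filter or one of 1 CPM in 4 libraries, a replicate block, leaving out each library, and DESeq2. On the FPKM table limma was run on log2(FPKM + 1) or log2(FPKM + 0.1), for genes of at least 0.5 FPKM in 4 libraries, and on log2(FPKM + 1) without that filter. Offsets corrected for transcript GC content, with all libraries and without shBOLA3-L replicate 1, were added after seeing the data.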

Additional observations from a re-analysis of the deposited data

How the results depend on the processing

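Of the 10 members 1 passed (PDHX), and the number was 0 with upper quartile normalization, with the replicate block and in limma on log2 FPKM with a filter (pseudocount 1 or 0.1), 3 with GC-corrected offsets (LIAS, DLAT and PDHX), 2 with those offsets and without shBOLA3-L replicate 1, and 0 to 2 with single libraries left out. In limma without a filter the 1 member that passed was DLST. The cause of these shifts was not tested. Partner genes past the threshold numbered 13, and 8 to 19 with single libraries left out. Genes past the threshold numbered 3630, and 2841 to 5081 over all 19 alternatives. BOLA3 kept its fall throughout (-1.71 to -1.56).

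OGDH changed sign without shBOLA3-L replicate 1 (0.0044), and ranged from -0.035 to 0.0044 with single libraries left out. The log2 difference of DLAT/PDHB likewise ranged from -0.063 to 0.0015, and changed sign without shBOLA3-L replicate 4. The remaining members kept their sign under all alternatives. Replicate numbers did not pair the libraries: deviations of same-numbered libraries correlated at -0.044 to 0.088. With the replicate block PDHX had an adjusted p of 0.0730, and 3392 genes passed. Depth limits LIPT2 and LIPT1 most, with 88 to 145 and 199 to 290 counts per library.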

Other observations

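Promoter windows of 300 bases (250 before and 50 after the start) were held by RefSeq for 9 of the 10 members. The median of 35116 such windows is 58.7% G or C with 14 CG dinucleotides. PDHX had 71.7% and 33, PDHA1 71.0% and 31, and LIAS 55.3% and 25. All 9 windows held more CG dinucleotides than the median, from 24 to 33. On either strand, a GC box (GGGCGG) occurred in 6 of the 9 windows and in 44.95% of all windows, and a CCAAT box (CCAAT) in 5 of 9 and in 34.6%. The ETS core CCGGAAG occurred in that of DLST alone (10.3% of all windows) and the YY1 element AAGATGGC in that of PDHB alone (2.89%), while the NRF1 element, GCGC followed after any 2 bases by GCGC, was in 0 of 9 (8.32%). These are matches of letters, and no difference between the groups bears on them.

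TSGA10, whose start lies 1 base from that of LIPT1 on the opposite strand, had 4.69 ± 0.356 CPM in shBOLA3-L cells and 5.54 ± 0.207 CPM in Control cells (SD, n = 4 each). The log2 change of -0.24 did not pass (edgeR adjusted p 0.120). Its groups did not overlap (at most 5.09 CPM in shBOLA3-L and at least 5.28 CPM in Control libraries), as in 30.2% of all genes tested. TSGA10 passed in 1 of 19 alternatives, limma on log2 FPKM without a filter (adjusted p 0.0393).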
